A study of Mus musculus with 7 samples.

Results

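Tnfrsf4, Tnfrsf9, Tnfrsf18, Icos, Cd27 and Cd28 encode 6 costimulatory receptors of lymphocytes. They were taken by symbol from the 55357 genes of the deposited matrices, each symbol matched 1 gene, and none of them was used to sort cells into types. Single cells of mouse liver had been sequenced 2 weeks after plasmids were given by hydrodynamic tail vein injection, in which a large volume is injected fast so that liver cells take up the DNA. Plasmids of the oncogenes Nras and C-myc, used to induce hepatocellular carcinoma, were given to all 7 samples, and all are labelled HCC tissue. The 3 control samples had these alone. For the 4 treated samples an IL-2/CD25 plasmid was added, named after interleukin 2, a growth factor of lymphocytes, and CD25, the alpha chain of the interleukin 2 receptor. The sources used here do not give strain, sex, age or the promoters of the plasmids. The labels do not say that the samples of a group came from separate animals, so the p-values below measure only the spread between these samples.

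Costimulatory receptors give a T cell the signal that it needs in addition to the antigen signal of its T cell receptor. CD28 binds CD80 and CD86 on antigen-presenting cells and is present on resting T cells. ICOS, its close relative, is induced on activated T cells and is abundant on regulatory T cells (Treg), which restrain immune responses. OX40 (Tnfrsf4), 4-1BB (Tnfrsf9), GITR (Tnfrsf18) and CD27 belong to the TNF receptor superfamily, recruit TRAF adaptor proteins and switch on NF-kB. OX40, 4-1BB and GITR are induced by activation and are high on Treg, while CD27 is carried by resting T cells and part of NK cells. CTLA-4, encoded beside CD28 and ICOS, competes with CD28 for its ligands.

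In the RefSeq gene order of mouse build GRCm38.p6, Tnfrsf4 and Tnfrsf18 are neighbours among protein-coding genes on chromosome 4, where Tnfrsf9 also lies, Cd28, Ctla4 and Icos follow each other on chromosome 1, and Cd27 lies on chromosome 6. Promoters in the RefSeq table of that build were matched for 4 of the 6 members, with 5 entries in all, and none was matched for Icos and Cd28. They were searched on both strands over the 250 bases before the start for TTCNNNGAA, the core letters bound by STAT factors, which carry the signal of the interleukin 2 receptor, for TGANTCA, bound by AP-1, and for the NF-kB motif by its name. These 3 motifs occurred in 7.02%, 6.75% and 3.90% of 32851 promoter windows of that length. All 3 occurred in the downstream of the 2 Tnfrsf9 promoters, the STAT letters occurred in the Tnfrsf18 promoter, and the other windows, of Tnfrsf4, Cd27 and the upstream Tnfrsf9 start, held none. A match is a description of letters, not evidence of binding. The stretches that hold the matches are printed here 5′ to 3′ on the plus strand with the match in capitals, to show how close to the start they lie. The STAT match of Tnfrsf9 begins 136 bases before the start, in a stretch at chr4:150927749-150927917 that lies, in GENCODE vM21, before any exon annotated in the window and within an intron of the longer Tnfrsf9 transcripts. Its NF-kB match (chr4:150927950-150927972, beginning 43 bases before the start, 2 overlapping matches) and AP-1 match (chr4:150927978-150927996, 15 bases before) fall within an annotated exon. The same holds for the STAT match of Tnfrsf18 (chr4:156026213-156026241, 99 bases before).
Tnfrsf9, STAT: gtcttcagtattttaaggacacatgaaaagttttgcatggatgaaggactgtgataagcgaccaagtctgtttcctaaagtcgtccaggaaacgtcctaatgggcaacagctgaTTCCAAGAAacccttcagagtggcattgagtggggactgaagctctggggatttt
Tnfrsf9, NF-kB: gcagctGGGGATTTCCCaggagg
Tnfrsf9, AP-1: ctcagtTGAGTCAcaggtc
Tnfrsf18, STAT: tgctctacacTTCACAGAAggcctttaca

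Cells were sorted in silico by raw counts of unique molecular identifiers (UMIs) of marker genes, and each set of cells is called a gate. The Treg gate held Foxp3 and Cd3 transcripts, the CD4 gate Cd4 without Foxp3, and the CD8 gate Cd8b1. The innate-like T gate held Cd3 transcripts with at least 2 UMIs of NK or gamma-delta T cell genes such as Klrb1c, Ncr1, Zbtb16 and Trdc. The NK gate held Ncr1 or Klrb1c without Cd3, and the gate of plasmacytoid dendritic cells (pDC, the main interferon producers) held Siglech and related genes. Of 57739 cells kept, 728 were in the Treg gate, 587 in the CD4 gate, 2654 in the CD8 gate, 5646 in the innate-like T gate, 11183 in the NK gate and 1132 in the pDC gate. The names stand for these marker rules. A level below is the UMIs of a gene scaled to a total of 1000000 UMIs of the gate in that sample (CPM).

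Controls held far fewer of these cells. Treg-gated cells numbered 7, 16 and 8 in controls 1 to 3, against 124 to 253 in the treated samples, and the CD4 gate held 18 to 46 control cells. NK-gated cells made up 1.45% ± 0.808 (SD, n = 3) of the control cells and 31.9% ± 2.16 (n = 4) of the treated cells. Each sample held 6823 to 9551 cells after filters, and the median cell had 5671 to 8280 UMIs in controls and 3113 to 4382 in treated samples, while 0 to 7 cells per sample met the rules of 2 gates. Depth within a gate could go the other way. The median pDC had 3969 to 5062.5 UMIs in controls and 6321.5 to 7776 in treated samples, and the median Treg 2279.5 to 4550.5 against 3921 to 5622. Any pair of libraries shared 14 to 37 cell barcodes. Among markers that the rules did not use, Ikzf2 was 2251 to 3603 CPM in the Treg gate, Klre1 479 to 959 CPM in the NK gate and Tcf4 2580 to 4135 CPM in the pDC gate. Such markers are not given here for the CD4, CD8 and innate-like T gates. The CD4 gate of the treated samples also held the pDC genes Tcf4 (20.5 to 279 CPM) and Ly6d (11.7 to 292 CPM), which were 0 to 8.57 CPM and 0 in controls. Without cells holding at least 2 UMIs summed over Siglech, Ccr9, Klk1 and Cox6a2, a setting chosen after seeing the data, 75 of 86 control and 486 of 501 treated CD4-gated cells remained. In those the 3 receptors that rose in the CD4 gate still did (Icos 0.86, Cd27 1.01 and Cd28 0.89 on the log2 scale, adjusted p = 0.021, 0.013 and 0.015). That setting left out a larger share of the control than of the treated cells. Tcf4 and Ly6d in the remaining cells are not given here, so it is not shown that pDC RNA was removed. Tumour and liver cells by Krt8 and Krt18 numbered 241 to 1152 in the control samples and 1 to 39 in the treated samples, which carry the same tissue label.

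In the treated samples every gate held at least 59 cells per sample. The levels were compared between gates by the edgeR quasi-likelihood test with sample as a block, Benjamini-Hochberg adjusted over all genes of a pair of gates. The order of the mean levels over the gates differed between receptors, except that Tnfrsf4 and Icos had the same order. The Treg gate was highest for 5 members and not for Cd28. Against the CD4 gate, 5 members were higher in Treg and 1 was lower, where 25.3% of all genes differed. Tnfrsf4 was the steepest, at 1102 ± 171 CPM (SD, n = 4) in Treg and 193 ± 98.2 in CD4, and it did not exceed 5.10 ± 2.72 CPM on average in the other 4 gates, whose neighbours in the order did not differ (adjusted p = 0.28 to 0.85). Tnfrsf9 ran from Treg (448 ± 89.2 CPM) to CD4 (69.2 ± 40.0) and NK (53.4 ± 7.17), which did not differ from each other (adjusted p = 0.60), then innate-like T (40.8 ± 11.3), CD8 (7.45 ± 1.40) and pDC (2.55 ± 2.11). Tnfrsf18, at 721 ± 79.4 CPM in Treg, fell stepwise through CD4, innate-like T, NK and CD8 to pDC (25.0 ± 5.10), and every neighbour differed. With a treated sample left out, its step from CD4 to innate-like T lost its call in 3 of 4 fits (0.07 to 0.52). The step from innate-like T to NK lost it in 2 of 4 (0.20 to 0.40). In CD4, 1 treated sample held 307 CPM and the next highest 143 CPM. The place of the CD4 gate depended on its cells with a UMI of the Treg genes Il2ra, Ikzf2 or Ctla4. Without them its treated mean was 3.34 CPM for Tnfrsf9 and 44.1 CPM for Tnfrsf18, below the NK and innate-like T means. Levels between gates were not tested without those cells.

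Icos followed the order Treg (1068 ± 162 CPM), CD4 (390 ± 62.0), innate-like T (193 ± 76.2), CD8 (106 ± 38.2), NK (24.2 ± 3.47) and pDC (2.84 ± 1.47), again with every neighbour different. Cd27 was flatter among T cells, from 498 ± 30.5 CPM in Treg through CD8 (336 ± 10.7), innate-like T (314 ± 40.2) and CD4 (293 ± 33.0), the last pair not different (adjusted p = 0.71), to 99.7 ± 8.97 in NK and 18.4 ± 3.72 in pDC. Cd28 was highest in CD4 (745 ± 191 CPM) and CD8 (584 ± 92.1), which did not differ (adjusted p = 0.25). Treg (499 ± 61.7 CPM) and innate-like T (481 ± 124) came next and did not differ from each other (adjusted p = 0.50), before NK (125 ± 28.0) and pDC (52.0 ± 12.5). Over all members, neighbours differed in 23 of 30 steps in treated samples. Pooled over all 15 pairs of gates, distant ones included, 45.8% of gene tests passed in treated samples and 13.2% in controls. Those shares cover more pairs than the steps and are not a like measure. In controls 11 of 30 steps differed, with 1 control in the Treg gate of that fit. None of the 7 control steps that involve Treg passed there. With all 3 controls in the Treg gate (at least 5 cells each), Tnfrsf4 (2.10, adjusted p = 0.0021) and Tnfrsf18 (1.62, adjusted p = 0.0012) were higher in Treg than in CD4 and Tnfrsf9 was higher in Treg than in NK (1.32, adjusted p = 0.013). The Treg steps of Icos, Cd27 and Cd28 did not pass in that fit either (adjusted p = 0.51 to 0.92).

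**Figure D1:**
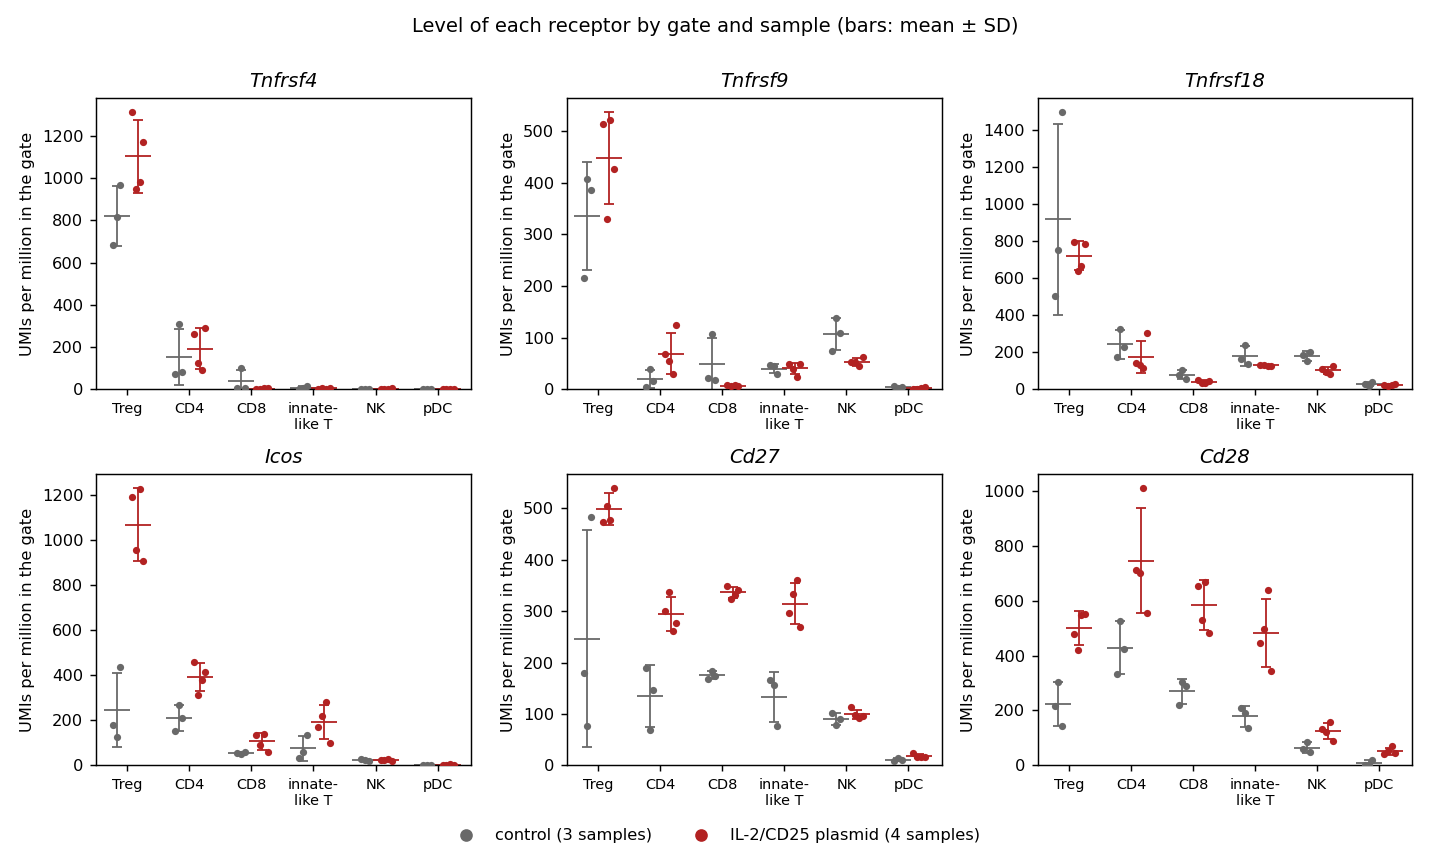
Level of each receptor (CPM) in 6 gates, with 1 point per sample and bars for the mean and SD of 3 control and 4 treated samples. Tnfrsf4 stands at 684 to 1311 CPM in the Treg gate and near 0 in NK and pDC, while Cd28 reaches its highest levels in the CD4 and CD8 gates.

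The UMIs of a receptor did not all lie in these gates. Of the 6291 Tnfrsf4 UMIs of the treated samples, 66.0% were in the Treg gate, while 34.7% of their Tnfrsf9 UMIs and 30.4% of their Tnfrsf18 UMIs were in the far larger NK gate. In controls 91.7% of Tnfrsf9 UMIs and 89.7% of Tnfrsf4 UMIs lay outside the 6 gates. The monocyte or macrophage gate held 37.0% of the control Tnfrsf9 UMIs, and cells of the liver and tumour gate held 17.5% of the control Tnfrsf4 UMIs.

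By gate, 3 of 6 members rose and none fell in Treg, where 2.31% of 7477 genes rose and 0.789% fell. In CD4 cells 3 rose and none fell (6.5% of genes rose and 9.26% fell). In CD8 cells 3 rose and 3 fell, where 20.7% of genes rose and 22.6% fell, so that 43.4% of all genes passed. Innate-like T cells had 3 members higher and 1 lower (6.73% of genes higher, 8% lower), and NK cells had 1 higher and 2 lower (15.4% and 15.5%). In pDC 3 members passed the filter on low counts and 1 rose and none fell (5.91% of genes rose and 7.74% fell). The count of 3 members that rose in Treg, CD4, CD8 and innate-like T cells was made up each time of Icos, Cd27 and Cd28, and each member that fell was from the TNF receptor genes Tnfrsf4, Tnfrsf9 and Tnfrsf18.

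**Figure D2:**
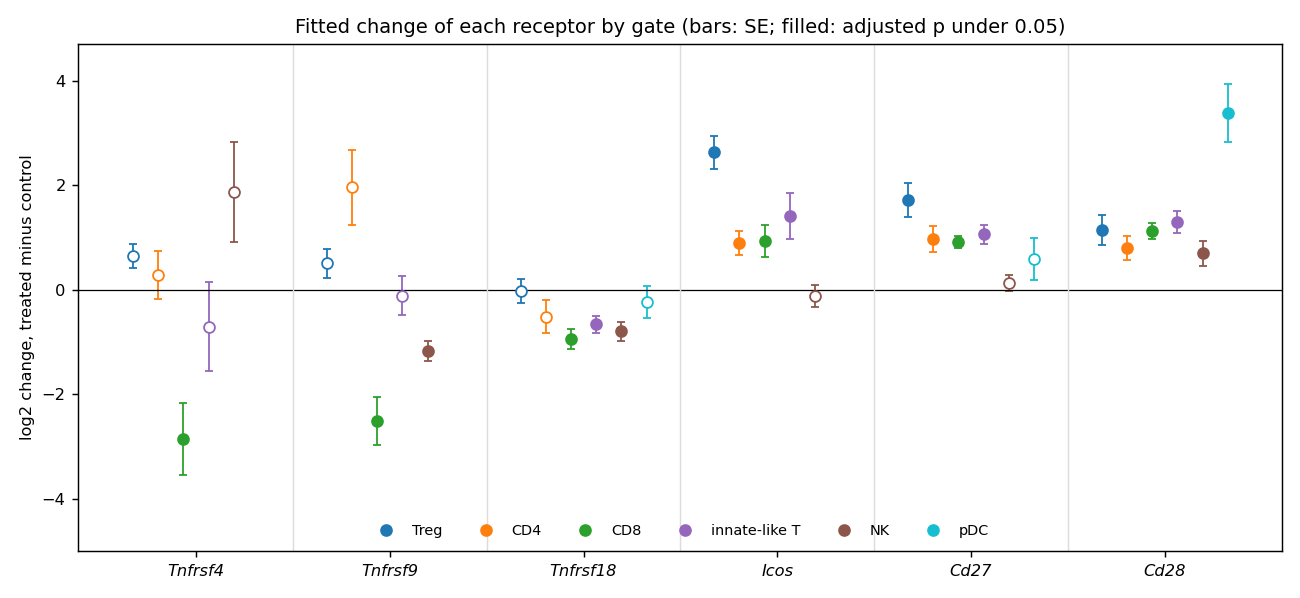
Log2 change of each receptor between treated and control samples with its standard error, by gate, from edgeR fits over all genes of the gate. Points past an adjusted p of 0.05 are filled: Icos, Cd27 and Cd28 lie above 0 in the 4 T cell gates, and Tnfrsf9 and Tnfrsf18 lie below 0 in the CD8 and NK gates.

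OX40 (Tnfrsf4), which binds OX40 ligand and prolongs T cell survival, was high in Treg of both groups. In the Treg gate it measured 684, 814 and 966 CPM in controls 1 to 3 and 1311, 947, 979 and 1172 CPM in treated samples 1 to 4. The groups overlapped, and the log2 change of 0.64 ± 0.23 (SE) did not pass (adjusted p = 0.13). In the CD8 gate it measured 7.92, 102 and 8.25 CPM in controls and 3.01, 3.63, 4.67 and 5.50 CPM in treated samples. All treated samples were below all controls, but control 2 stood far above the other two. The fitted fall of 2.86 ± 0.68 on the log2 scale (edgeR adjusted p = 0.0029) was -0.95 without control 2 (adjusted p = 0.15) and -3.66 without control 1. Those 35 UMIs of control 2 came from 8 of its 38 cells, and 2 cells held 20 of them. In the CD4 gate Tnfrsf4 spread from 72.9 to 308 CPM in controls and from 93.1 to 292 CPM in treated samples (adjusted p = 0.74). Innate-like T cells (0, 8.93 and 17.7 CPM in controls, 2.88 to 8.64 in treated samples) and NK cells (0, 1.70 and 0 CPM against 3.01 to 6.78) held little and did not pass (adjusted p = 0.65 and 0.16). No Tnfrsf4 UMI was found in control pDC, where a floor of 3 counts corresponds to 2.83 CPM over the group.

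4-1BB (Tnfrsf9), whose ligand is carried by antigen-presenting cells and which sustains CD8 T and NK cells, fell in 2 gates. NK cells held 75.2, 138 and 109 CPM in controls 1 to 3 and 53.0, 54.0, 44.5 and 62.0 CPM in treated samples 1 to 4. Every treated sample was below every control, a change of -1.18 ± 0.20 on the log2 scale (adjusted p = 0.00062). That call did not hold without control 2 (-0.72, adjusted p = 0.099) or with cells thinned to 1500 UMIs and gated again on the thinned counts (-0.86, adjusted p = 0.11). CD8 cells held 22.0, 108 and 19.2 CPM in controls and 7.68, 6.44, 9.33 and 6.33 CPM in treated samples. The fall of 2.52 ± 0.46 (log2, adjusted p = 0.00032) shrank to -1.55 without control 2 and still passed (adjusted p = 0.0016). In that sample 2 cells held 22 of its 37 UMIs. Treg held 216, 407 and 386 CPM in controls against 513, 331, 521 and 427 CPM in treated samples, which overlapped (adjusted p = 0.38). The innate-like T gate was nearly level, at 46.4, 44.6 and 29.6 CPM against 49.6, 40.3, 25.0 and 48.3 CPM (adjusted p = 0.89). In the CD4 gate the values were 4.29, 39.7 and 16.3 CPM from 1, 4 and 1 UMIs in controls and 29.1 to 124 CPM in treated samples, a change of 1.96 ± 0.72 that did not pass (adjusted p = 0.072). The Tnfrsf9 change in CD4 cells passed when control 2 was left out (3.12, adjusted p = 0.038) and when treated sample 3 was (2.30, adjusted p = 0.016). It also passed with no low-count filter (2.10, adjusted p = 0.0024) and with the replicate number as a block (1.75, adjusted p = 0.046).

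GITR (Tnfrsf18), which lowers the threshold of T cell activation, fell in the CD8, innate-like T and NK gates. CD8 cells held 78.3, 105 and 57.7 CPM in controls 1 to 3 and 49.1, 35.4, 36.6 and 45.7 CPM in treated samples 1 to 4. NK cells held 188, 153 and 201 CPM in controls and 109, 92.5, 85.0 and 127 CPM in treated samples. In both gates every treated sample lay below every control, with log2 changes of -0.95 ± 0.19 (adjusted p = 0.00075) and -0.80 ± 0.17 (adjusted p = 0.0035). Innate-like T cells held 166, 241 and 136 CPM in controls and 127 to 133 CPM in treated samples, close below the lowest control. The change of -0.66 ± 0.17 (adjusted p = 0.014) became -0.27 without control 2 (adjusted p = 0.40). Thinning ended all 3 calls (adjusted p = 0.21, 0.80 and 0.053 in the CD8, innate-like T and NK gates). Treg held 504, 750 and 1496 CPM in controls and 796, 640, 666 and 782 CPM in treated samples (adjusted p = 0.98). In that gate control 3 was the highest of all samples and rested on 31 UMIs from 8 cells. CD4 cells held 176, 328 and 228 CPM against 143, 134, 118 and 307 CPM (adjusted p = 0.30), and without treated sample 4 Tnfrsf18 was lower there by a call (-0.85, adjusted p = 0.022). In pDC it was 20.4 to 41.8 CPM in controls and 20.1 to 31.4 CPM in treated samples (adjusted p = 0.69).

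ICOS, which binds ICOS ligand and supports effector and regulatory T cells, gave the widest difference between groups in Treg. The Treg gate held 180, 127 and 434 CPM of Icos in controls 1 to 3, from 5, 10 and 9 UMIs, and 1188, 953, 1225 and 904 CPM in treated samples 1 to 4. The lowest treated sample was far above the highest control, and the log2 change was 2.63 ± 0.32 (edgeR adjusted p = 8.4e-09). It passed in every alternative run for the Treg gate, from 2.22 without control 2 to 3.06 without control 3. Since 2 controls held under 10 Treg, samples with at least 5 cells entered these Treg tests, a choice made after the cell numbers were seen. CD4 cells held 154, 268 and 212 CPM in controls and 459, 311, 378 and 412 CPM in treated samples, a rise of 0.89 ± 0.23 (adjusted p = 0.012) that did not pass without control 1 (0.59, adjusted p = 0.21). CD8 cells held 53.6, 52.7 and 57.7 CPM in controls and 134, 90.2, 141 and 59.7 CPM in treated samples, a rise of 0.92 ± 0.31 (adjusted p = 0.022), with treated sample 4 just above the controls. It did not pass without control 1 (adjusted p = 0.15) or treated sample 1 (adjusted p = 0.052), and thinning ended the Icos calls of the CD4 and CD8 gates (adjusted p = 0.23 and 0.25). Innate-like T cells held 30.9, 60.2 and 136 CPM against 172, 218, 281 and 100 CPM. These groups overlapped, and the change of 1.41 ± 0.44 passed narrowly (adjusted p = 0.044). It did not pass in 10 of 15 alternatives, among them thinning (0.59, adjusted p = 0.55) and each control left out. NK cells did not pass (18.2 to 28.2 CPM in controls, 20.3 to 28.7 in treated samples, adjusted p = 0.73), and pDC held 0 UMIs in controls and 2 to 8 per treated sample, too few for the test.

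CD27, which binds CD70 and supports memory formation, rose in all 4 T cell gates. CD8 cells held 169, 184 and 173 CPM in controls 1 to 3 and 349, 324, 332 and 340 CPM in treated samples 1 to 4. The groups were far apart, and the rise of 0.92 ± 0.12 on the log2 scale (adjusted p = 9.1e-06) had the smallest standard error of any member in the 6 gates. Innate-like T cells held 166, 156 and 76.8 CPM in controls and 296, 332, 360 and 268 CPM in treated samples, a rise of 1.06 ± 0.19 (adjusted p = 0.0016). Both calls passed in every alternative run. CD4 cells held 189, 69.5 and 147 CPM against 301, 336, 260 and 276 CPM, a rise of 0.97 ± 0.25 (adjusted p = 0.014) that did not pass without control 2 (0.70, adjusted p = 0.062) or thinned (adjusted p = 0.34). Treg held 180, 76.3 and 483 CPM in controls and 474, 504, 477 and 539 CPM in treated samples. Control 3 lay among the treated samples, and the rise of 1.71 ± 0.33 (adjusted p = 0.00041) was 1.03 without control 2 (adjusted p = 0.19), 2.40 without control 3 and 1.15 with thinned cells (adjusted p = 0.27). NK cells were level at 78.3 to 101 CPM in controls and 92.8 to 113 CPM in treated samples (adjusted p = 0.56), and pDC did not pass (adjusted p = 0.38).

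CD28, the receptor for CD80 and CD86, was the 1 member that rose in all 6 gates. CD8 cells held 219, 304 and 289 CPM in controls 1 to 3 and 655, 528, 669 and 484 CPM in treated samples 1 to 4, a rise of 1.12 ± 0.15 (adjusted p = 2.3e-05). Innate-like T cells held 209, 192 and 136 CPM against 445, 498, 640 and 343 CPM, a rise of 1.29 ± 0.21 (adjusted p = 0.0010). In both gates every treated sample exceeded every control, and the calls passed in every alternative run. CD4 cells held 334, 526 and 423 CPM against 713, 701, 1010 and 555 CPM, with treated sample 4 close to control 2 and a rise of 0.79 ± 0.23 (adjusted p = 0.023). That call did not pass without control 1 (adjusted p = 0.23), control 3 (adjusted p = 0.063) or treated sample 3 (adjusted p = 0.069), or thinned (adjusted p = 0.078). Treg held 216, 305 and 145 CPM against 478, 421, 547 and 550 CPM, a rise of 1.14 ± 0.29 (adjusted p = 0.013). The control values of Treg rest on 6, 24 and 3 UMIs, and the rise was 1.77 without control 2 and did not pass without control 1 (adjusted p = 0.068) or control 3 (adjusted p = 0.10), thinned (adjusted p = 0.17) or with the replicate block (adjusted p = 0.085). NK cells held 58.7, 86.0 and 50.1 CPM against 134, 122, 157 and 89.5 CPM. The groups nearly met there, and the rise of 0.70 ± 0.24 (adjusted p = 0.039) did not pass in 7 of 15 alternatives.

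Cd28 in pDC rested on few control UMIs. It measured 2.11, 0 and 20.9 CPM in controls 1 to 3, from 1, 0 and 4 UMIs, and 40.5, 51.9, 69.4 and 46.4 CPM in treated samples 1 to 4, from 44 to 125 UMIs. Every treated sample was above every control, and the fitted change was 3.38 ± 0.55 on the log2 scale (adjusted p = 0.00032), which ranged from 2.74 without control 2 to 5.34 without control 3 and passed in every alternative run. The pDC gate allows at most 1 Cd3 UMI per cell, and T cell RNA in it also differed between groups: summed Cd3d, Cd3e and Cd3g were 2.55 to 5.22 CPM in controls and 10.1 to 27.3 CPM in treated samples, and Lck, a T cell kinase, was 2.11 to 5.22 against 11.1 to 18.4 CPM. Relative to the CD8 gate of the same sample, treated pDC held 6.18 to 10.4% of the Cd28 level, 2.70 to 3.77% of the Lck level and 0.513 to 1.73% of the Cd3d level. Treated B cells held 1.69 to 2.16% and treated neutrophils 0.554 to 1.53% of the Cd28 level of CD8 cells. For Lck the order was another one, with 4.21 to 5.48% in treated B cells and 1.85 to 4.73% in treated neutrophils. Control B cells held 38.1, 0 and 6.30 CPM of Cd28, from 23, 0 and 3 UMIs, so that control 1 came close to the lowest treated pDC sample and reached 17.4% of its CD8 level. In the share of cells with a UMI after thinning to 1500 UMIs, Cd28 was found in 1.28% ± 1.36 of control and 7.96% ± 3.53 of treated pDC (3.37% ± 4.98 and 25.1% ± 4.48 unthinned). Before thinning, treated pDC were deeper than control pDC. Thinning left out 29 of 218 control pDC and 27 of 914 treated pDC as too shallow.

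**Figure D3:**
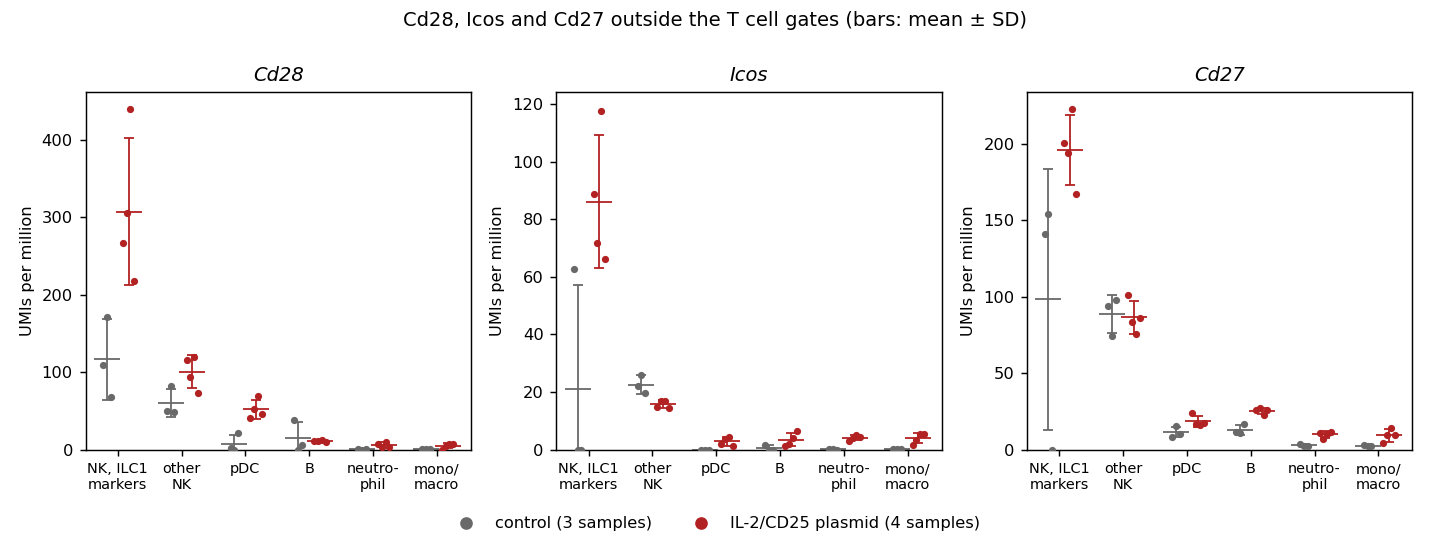
Cd28, Icos and Cd27 (CPM) in NK cells with and without ILC1 markers, pDC, B cells, neutrophils and monocytes or macrophages, 1 point per sample with mean and SD of 3 control and 4 treated samples. Treated pDC (40.5 to 69.4 CPM of Cd28) lie above B cells and neutrophils of the same samples, and in the treated samples NK cells with ILC1 markers lie above other NK cells for all 3 genes.

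Other measures moved with the groups in the same cells. Summed levels of the dividing-cell genes Mki67, Top2a, Birc5, Cdk1 and Ccnb1, all 5 detected in both groups, were 731 to 1633 CPM in control CD8 cells and 43.9 to 124 CPM in treated CD8 cells, 298 to 1526 against 68.2 to 215 in CD4 cells, 109 to 622 against 72.9 to 89.0 in NK cells, and 193 to 1801 against 326 to 469 in Treg. Ccr7, a homing receptor of resting T cells, was 34.3 to 61.5 CPM in control CD8 cells and 208 to 457 CPM in treated CD8 cells. The 4 liver and tumour genes summed to 61.5 to 242 CPM in control CD8 cells and 6.88 to 56.4 CPM in treated CD8 cells, and the 7 myeloid genes to 49.4 to 93.9 against 9.22 to 11.9 CPM in NK cells. Their part in the changes of the receptors was not tested.

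The treatment difference itself was compared between gates by a gate-by-group term, once with at least 10 cells per sample and gate, where 1 control entered the Treg gate, and once with at least 5, where all 3 did. Between Treg and CD8, Tnfrsf4 differed by 3.97 ± 0.60 on the log2 scale with 3 Treg controls (adjusted p = 4.9e-06) and by 4.79 ± 0.61 with 1 (adjusted p = 5.9e-07). Tnfrsf9 differed by 3.38 ± 0.52 (adjusted p = 4.4e-06) and 3.43 ± 0.58 (adjusted p = 0.00012), and Tnfrsf18 by 1.15 ± 0.30 (adjusted p = 0.0075) and 1.20 ± 0.35 (adjusted p = 0.042). With 1 Treg control, 3.04% of genes passed. Between CD8 and innate-like T cells, Tnfrsf9 differed by -2.51 ± 0.53 (adjusted p = 0.00096, and 0.00061 with at least 5 cells), where 8.45% of genes passed. Tnfrsf4 passed there with at least 10 cells (-2.63 ± 0.85, adjusted p = 0.042) and did not with at least 5 (-2.46 ± 0.93, adjusted p = 0.085). Control 2 was the 1 Treg control with at least 10 cells and the CD8 control with the high Tnfrsf4 and Tnfrsf9. Without it the Treg contrasts could not be fitted, and between CD8 and innate-like T cells Tnfrsf4 (-0.55, adjusted p = 0.88) and Tnfrsf9 (-1.62, adjusted p = 0.082) did not pass. The Tnfrsf18 difference between Treg and CD8 also missed the threshold without control 1 (adjusted p = 0.10), treated sample 2 (adjusted p = 0.077) or treated sample 3 (adjusted p = 0.070). The Tnfrsf4 difference between CD8 and innate-like T cells missed it without control 1 (adjusted p = 0.081), treated sample 2 (adjusted p = 0.068) or treated sample 4 (adjusted p = 0.057). With at least 5 Treg per sample and without control 2, the Treg and CD8 difference of Tnfrsf9 passed (2.72, adjusted p = 0.013) and those of Tnfrsf4 (2.00, adjusted p = 0.23) and Tnfrsf18 (0.97, adjusted p = 0.12) did not. With at least 5 cells and all samples, Icos also differed between Treg and CD8, by 1.97 ± 0.53 (adjusted p = 0.0097, against 0.055 with at least 10 cells). Between Treg and CD8, Cd28 differed by -0.03 ± 0.48 with 1 Treg control and by 0.25 ± 0.39 with 3. Between CD8 and innate-like T cells it differed by -0.11 ± 0.24, and by -0.17 ± 0.24 with at least 5 cells. Cd28 passed in neither comparison. No member passed between Treg and CD4 (0.227% of genes) or between innate-like T and NK cells (0.813%).

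The CD8 gate mixed cells with different activation genes. Cells with a UMI of Pdcd1, Lag3, Gzmk or Gzmb, which mark activated and cytotoxic cells, made up 82.4, 55.3 and 71.8% of the CD8 gate in controls 1 to 3 and 12.4 to 19.6% in treated samples. Within the cells with such genes, Icos rose by 1.19 ± 0.28 (log2, adjusted p = 0.0025), Cd27 by 1.01 ± 0.16 (adjusted p = 0.00011) and Cd28 by 0.86 ± 0.20 (adjusted p = 0.0022), that is 3 of 4 members tested, where 19.4% of genes rose. Within the cells without them, Cd27 rose by 0.89 ± 0.20 (adjusted p = 0.0032) and Cd28 by 1.43 ± 0.21 (adjusted p = 1.2e-05), 2 of 5 tested, where 3.42% of genes rose. So Cd27 and Cd28 rose in both sets of CD8 cells in the main fits. In the set without activation genes the controls held 53 Cd27 and 65 Cd28 UMIs in all. With a sample left out, Cd28 passed there in all 7 fits, and Cd27 did not pass without control 3. With thinned cells 1 member was higher there.

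The lower TNF receptor levels were not all seen within these sets. Tnfrsf18 in cells with activation genes was 77.5, 115 and 45.7 CPM in controls and 41.1 to 71.4 CPM in treated samples, which overlapped (-0.52 ± 0.26, adjusted p = 0.12). In cells without them it was 86.1, 78.9 and 101 CPM, from 7 to 9 UMIs, against 33.4 to 46.1 CPM, which did not overlap (-1.06 ± 0.34, adjusted p = 0.059). Tnfrsf9 in cells with activation genes was 23.2, 130 and 21.1 CPM in controls and 11.5, 12.2, 33.4 and 18.2 CPM in treated samples, and had too few UMIs for the test. In cells without them it was 9.56 to 45.1 CPM in controls, from 6 UMIs in all, and 3.42 to 6.71 CPM in treated samples. These did not overlap and did not pass (-1.95 ± 0.79, adjusted p = 0.17). With no low-count filter 2 members were called lower in cells with activation genes, and with DESeq2 2 were in cells without them. Most alternatives called none lower. All 47 control UMIs of Tnfrsf4 in the CD8 gate were in cells with activation genes. In the 4 treated samples, cells with activation genes held more Tnfrsf9 in 4 samples (0.86 ± 0.52, mean and SD of the log2 difference with 10 CPM added) more Icos in 4 samples (0.50 ± 0.34) and more Tnfrsf18 in 4 samples (0.41 ± 0.24), and less Cd28 in 4 samples (-0.14 ± 0.11).

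**Figure D4:**
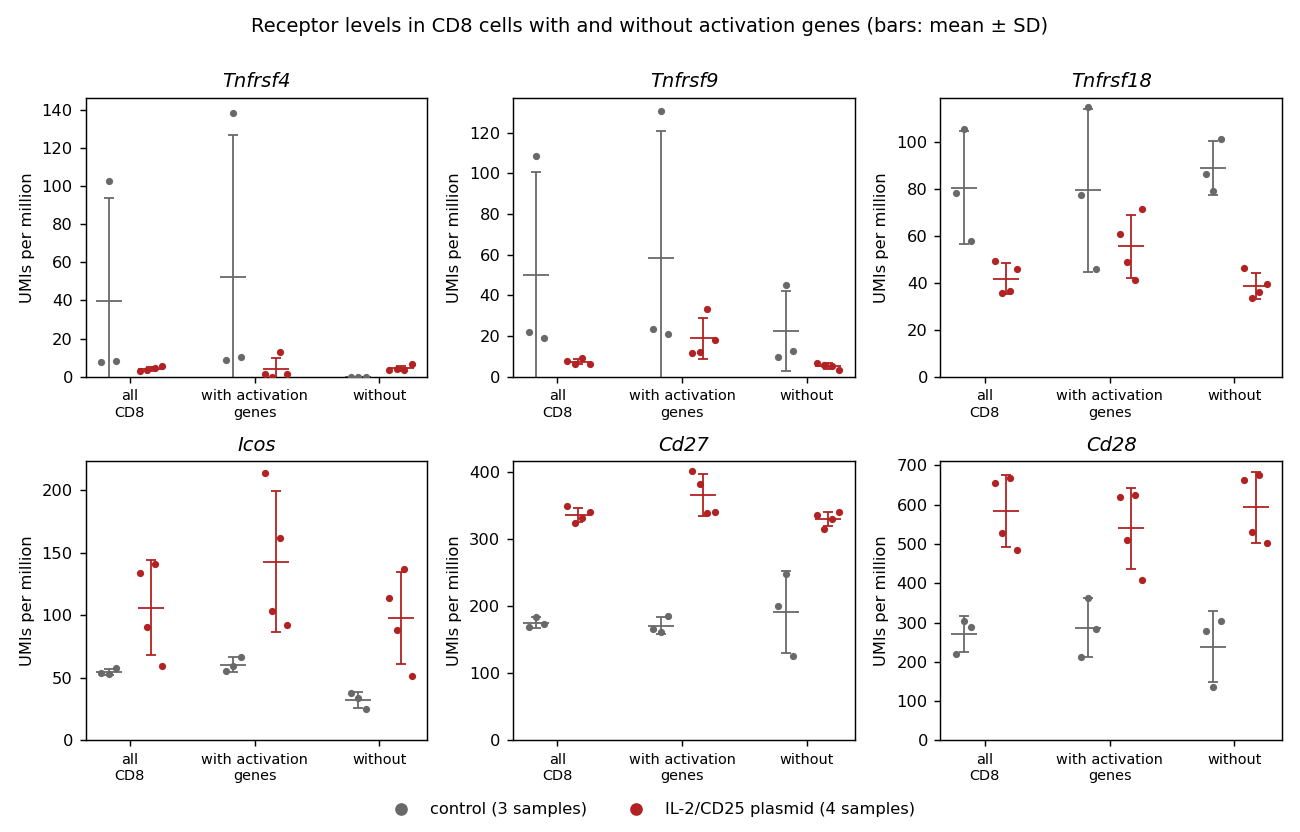
Levels of the receptors (CPM) in CD8 cells with and without a UMI of Pdcd1, Lag3, Gzmk or Gzmb, 1 point per sample with mean and SD of 3 control and 4 treated samples. Treated samples lie above controls for Cd27 and Cd28 in both sets, and 1 control stands apart for Tnfrsf4 (138 CPM) and Tnfrsf9 (130 CPM) in cells with activation genes.

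The NK gate likewise held cells with markers of ILC1, the tissue-resident relatives of NK cells (Itga1, Il7r, Tmem176a or Tmem176b without Eomes), at 3.70 to 14.4% of the gate in controls and 10.5 to 11.5% in treated samples. In treated samples these cells held more of 4 receptors than other NK cells in every sample. Icos was 66.2 to 118 CPM in them against 14.5 to 16.9 CPM, Cd28 217 to 440 against 73.3 to 119 CPM, Cd27 167 to 223 against 75.5 to 101 CPM and Tnfrsf18 142 to 195 against 71.4 to 118 CPM. Tnfrsf9 was higher in them in 1 of 4 samples. The controls held 4 to 14 such cells and were not tested. Among NK cells without these markers, Tnfrsf9 (-1.18 ± 0.20, adjusted p = 0.00063), Tnfrsf18 (-0.83 ± 0.20, adjusted p = 0.0060) and Icos (-0.69 ± 0.21, adjusted p = 0.024) fell, 3 of 6 members, where 15.5% of genes fell. Without control 2, 0 members passed in these cells, and with thinned cells 1 was lower. With no low-count filter, the replicate block, doublets kept or the stricter gate, 2 were lower. Icos was 22.1, 26.0 and 19.5 CPM there in controls and 14.8, 16.9, 16.9 and 14.5 CPM in treated samples. Cd28 did not pass in these cells (0.48 ± 0.24, adjusted p = 0.16).

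The CD4 gate also held cells with Treg genes. A UMI of Il2ra, Ikzf2 or Ctla4 was found in 52.2, 54.5 and 38.9% of CD4-gated cells in controls and 49.2, 33.5, 33.3 and 58.4% in treated samples. Without those cells, 10 to 22 cells remained per control. Tnfrsf18 then stood at 140, 195 and 238 CPM in controls and 40.5, 32.5, 33.5 and 69.6 CPM in treated samples, and fell by 2.13 on the log2 scale (adjusted p = 0.00028), against -0.52 (adjusted p = 0.30) in the whole gate. Cd28 stayed higher (1.29, adjusted p = 0.00033), as did Cd27 (0.89, adjusted p = 0.028), while Icos did not pass (0.28, adjusted p = 0.56). Tnfrsf4 and Tnfrsf9, with 9 and 1 control UMIs, did not enter that test. Treated means without the cells with Treg genes were 18.0 CPM for Tnfrsf4, 3.34 for Tnfrsf9, 44.1 for Tnfrsf18 and 178 for Icos. In the whole gate they were 193, 69.2, 176 and 390 CPM. Cd27 was 252 against 293 CPM, and Cd28 went the other way, at 828 against 745 CPM.

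Counted by cells, thinning each cell to 1500 UMIs removed the difference in depth, and 0 of 36 shares passed an exact two-sided permutation test (2 times the one-sided p), whose smallest p with 35 splits is 0.0571 (0.16 after Benjamini-Hochberg adjustment, which is the lowest adjusted value reached). Icos was found in 23.4% ± 8.36 of control Treg (SD, n = 3) and 72.0% ± 3.08 of treated Treg (n = 4). Unthinned, the shares were 50.3% ± 6.70 and 91.9% ± 2.52. Cd28 was found in 26.1% ± 4.23 of control and 53.5% ± 4.43 of treated CD8 cells (64.4% ± 4.65 and 84.1% ± 3.54 unthinned). In innate-like T cells it was found in 21.7% ± 1.72 and 44.0% ± 7.36 (38.6% ± 9.87 and 68.0% ± 5.31 unthinned). Cd27 was found in 21.7% ± 0.668 and 37.3% ± 1.53 of CD8 cells (61.6% ± 7.53 and 73.8% ± 3.03 unthinned). Shares of Treg overlapped at 1500 UMIs for Tnfrsf4 (67.7% ± 4.65 and 63.9% ± 6.49, against 76.5% ± 12.3 and 85.6% ± 8.11 unthinned) and for Tnfrsf18 (64.2% ± 15.7 and 58.7% ± 6.70, against 76.5% ± 8.58 and 85.9% ± 5.20 unthinned). The overlap of Tnfrsf4 depended on the depth chosen. Thinned to 1000 UMIs, it was found in 21.4 to 42.9% of control and 52.9 to 58.8% of treated Treg. Tnfrsf9 in Treg overlapped at 1500 UMIs but was 7.14 to 14.3% against 24.7 to 32.7% at 1000. Neither passed the permutation test there (adjusted p = 0.17), and Tnfrsf18 still overlapped. Tnfrsf9 was found in 11.4% ± 0.774 of control and 5.65% ± 0.944 of treated NK cells (27.3% ± 11.8 and 12.5% ± 2.70 unthinned), with all treated samples below all controls. B cells, which should lack most of these receptors, gave after thinning at most 1.84% for Tnfrsf4, 1.33% for Tnfrsf9, 0.864% for Icos and 1.47% for Cd28 in any sample, but up to 3.45% for Tnfrsf18 and 4.33% for Cd27. Median depth before thinning was 1766 to 3041 UMIs in B cells and 4299 to 6373 in CD8 cells.

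**Figure D5:**
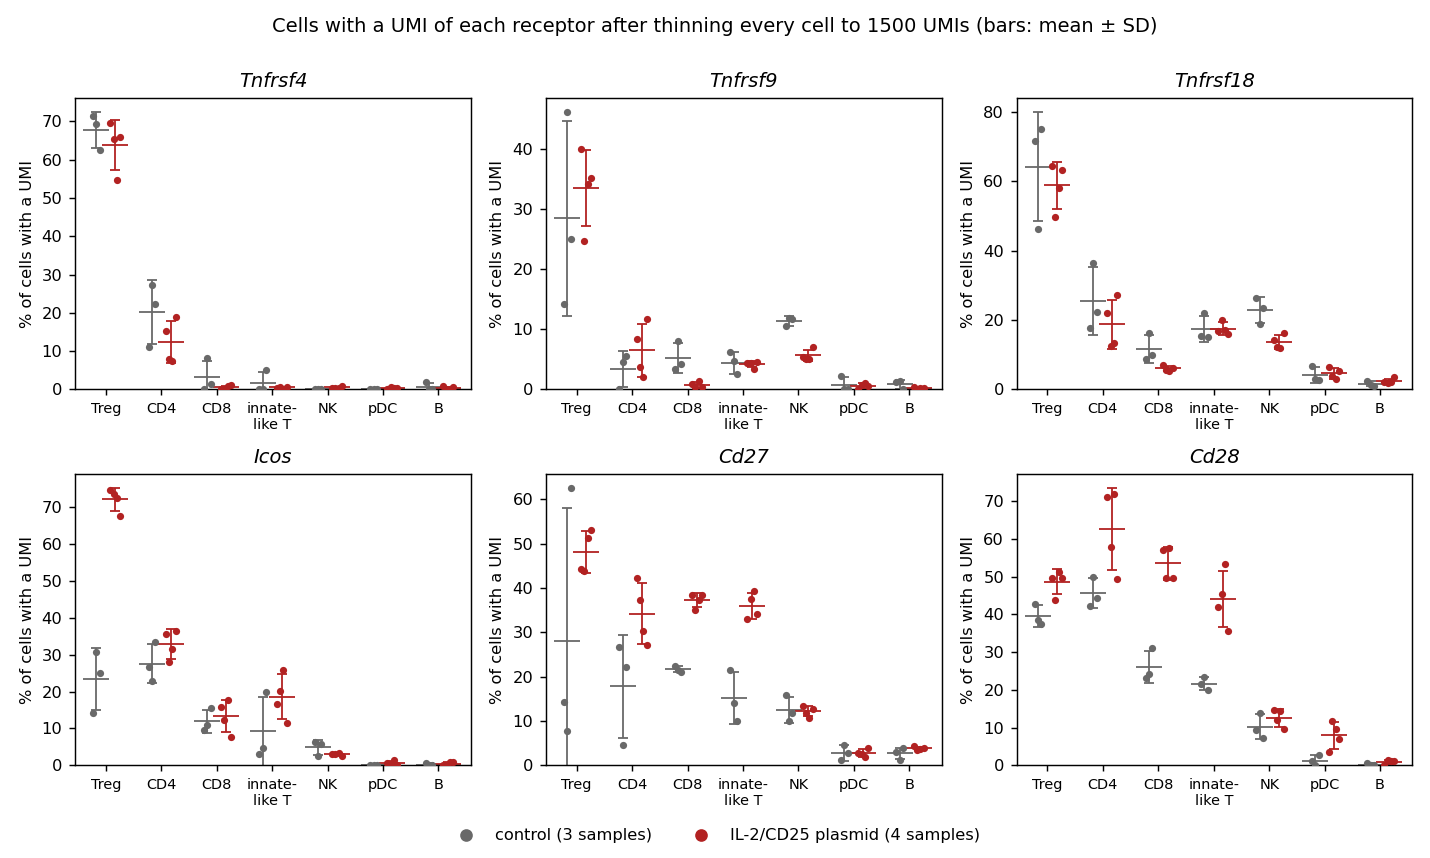
Percent of cells with at least 1 UMI of each receptor after thinning cells to 1500 UMIs, by gate, 1 point per sample with mean and SD of 3 control and 4 treated samples. Icos separates the groups in Treg (14.3 to 30.8% against 67.6 to 74.5%), while Tnfrsf4 and Tnfrsf18 overlap there.

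Several receptors were found together in Treg more than in other cells. A treated Treg held UMIs of 4.78 ± 0.281 of the 6 receptors on average and a control Treg 3.53 ± 0.172 (3.25 ± 0.182 and 2.52 ± 0.316 after thinning). At least 4 receptors were found in 86.0% ± 6.13 of treated and 50.3% ± 11.1 of control Treg before thinning, and in 43.6% ± 5.48 and 22.4% ± 13.1 after it. CD8 cells without any of the 6 receptors were 43.4% ± 6.00 of control and 23.2% ± 4.31 of treated cells after thinning, whereas NK cells without any were 50.4% ± 5.40 and 62.8% ± 1.85. These shares were not tested.

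The pathways around the receptors were described by 4 lists, by counts of members that passed in the same fits. Of the ligand genes (Tnfsf4, Tnfsf9, Tnfsf18, Icosl, Cd70, Cd80 and Cd86), 0 to 5 of 7 were high enough to test in a gate, and none rose. Tnfsf4, the OX40 ligand, fell in NK cells (-2.68 ± 0.85, adjusted p = 0.029), where 15.5% of all genes fell. Of 17 adaptor and NF-kB genes, 3 rose in Treg, where 2.31% of all genes rose, with a median change of 0.75 beside 0.21 over all genes: Rel (1.66 ± 0.41), Nfkbia (1.24 ± 0.28) and Tnfaip3 (1.17 ± 0.33). In CD8 cells 8 of 17 rose and 1 fell, where 20.7% of all genes rose and 22.6% fell (median 0.52 beside 0.03). Those that rose were led by Tnfaip3 (1.84 ± 0.28), an inhibitor of NF-kB, with Birc2, Birc3, Map3k14, Rel, Rela, Nfkbia and Traf1. Siva1, a proapoptotic partner of CD27, was the 1 that fell in CD8 (-1.68 ± 0.16). It also fell in CD4 and NK cells, where 9.26% and 15.5% of all genes fell. In pDC 5 of 17 rose and none fell, where 5.91% of all genes rose and 7.74% fell (median 0.35 beside 0.00). They were Tnfaip3 (2.10 ± 0.31), Relb (1.61 ± 0.37), Nfkb2 (1.53 ± 0.40), Traf3 (1.32 ± 0.34) and Rel (0.68 ± 0.16).

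Of 17 genes of CD28 and ICOS signalling, 10 rose and 1 fell in CD8 cells, where 20.7% of all genes rose and 22.6% fell (median 0.45 beside 0.03). Malt1, a protease that acts in NF-kB activation, was among those that rose (1.64 ± 0.17), and Akt1, a kinase, was the 1 that fell (-0.91 ± 0.17). In NK cells 13 rose and none fell, where 15.4% of all genes rose and 15.5% fell (median 0.60 beside 0.05). In innate-like T cells 8 rose and none fell, where 6.73% of all genes rose and 8% fell (median 0.51 beside 0.06). In Treg none of 17 passed in either direction, where 2.31% of all genes rose and 0.789% fell, although the median was 0.73 beside 0.21 for all genes.

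Of 14 related receptors, Ctla4, the inhibitory relative of CD28, rose in Treg (1.74 ± 0.26) together with Cd2 (1.01 ± 0.26) and Tnfrsf1b (0.97 ± 0.29), where 2.31% of all genes rose. Ctla4 also rose in CD4 cells (1.03 ± 0.29), where 6.5% of all genes rose. In CD8 cells 5 of 11 tested fell and 1 rose (median -0.050 beside 0.03), where 22.6% of all genes fell and 20.7% rose. The inhibitory receptor Pdcd1 fell by 4.16 ± 0.41, Havcr2 by 2.79 ± 0.47, Lag3 by 2.75 ± 0.35 and Ctla4 by 1.52 ± 0.32, and Slamf1 fell by 1.13 ± 0.42, while Cd5 rose by 0.46 ± 0.15. Innate-like T cells had Cd226 higher (0.55 ± 0.17) and Pdcd1 lower (-3.34 ± 0.31), where 6.73% of all genes rose and 8% fell. In NK cells Cd2 (0.56 ± 0.12) and Tnfrsf1b (0.42 ± 0.14) rose and Tigit fell by 2.14 ± 0.58, where 15.4% of all genes rose and 15.5% fell. No related receptor passed in pDC.

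Across the 12 gate means (6 gates in each group, which share libraries), the gene most like Tnfrsf4 among 7781 compared was Ctla4 (Pearson r = 0.98 of log2 CPM with 10 added), followed by Sdcbp2 and Igsf9b (0.97 each). Icos was most like Agfg1, Smpdl3a and Igtp (0.97, 0.97 and 0.96), and Cd27 most like Rnf125, Prkd2 and Lcp2 (0.97, 0.95 and 0.95). Cd28 was most like Traf5, a TRAF adaptor, at 0.96, then Frmd8 and Zc3hav1. Tnfrsf9 was most like Gm45716, Gbp3 and Il12rb1 (0.94, 0.93 and 0.92), and Tnfrsf18 most like Itgav, Ciapin1 and Mapkapk3 (0.94 each). Among the members themselves the closest pairs were Cd27 with Cd28 (0.92), Tnfrsf9 with Tnfrsf18 (0.91) and Icos with Cd27 (0.91), and the most distant was Tnfrsf9 with Cd28 (0.36).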

How the data were processed

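The authors deposited, for each of 3 control and 4 treated samples, raw UMI counts per gene and cell barcode. Libraries were of the 10x 3′ v3.1 kind, per the labels, and the processing notes of the submitters list Cell Ranger 7.0.0 and bcl2fastq 5.0.1. The genome build behind the counts is not given in the sources used here. UMI totals were 76438139 to 181755269 per control and 37653600 to 47881379 per treated sample, and 1 batch label covers all samples.

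Cells were kept above minimums of 500 UMIs and 200 genes if mitochondrial UMIs were under 20%, and 5.81 to 8.51% of them per sample were removed as doublets scored against sums of random pairs of cells. Gates were set on raw UMIs of markers, and cells with at least 3 UMIs of B cell, myeloid or liver and tumour genes were left out of the 6 gates (the genes Tcrg-C1 and Tcrg-C2 are Trgc1 and Trgc2 in the files). UMIs were summed per sample and gate, in samples with at least 10 cells in the gate. Sums were tested in edgeR 4.0.16 by its quasi-likelihood test (TMM, filterByExpr, Benjamini-Hochberg over all genes tested, threshold 0.05, R 4.3.3). Because no more than 1 control held at least 10 Treg, the Treg gate had no test under this rule and was tested with at least 5 cells. SE is the log2 change divided by the square root of F. On simulated counts with the means of these samples the test found, of genes changed 2-fold, 42% in the CD4 gate (4892 genes), 59% in CD8 (10535 genes), 37% in innate-like T (11969 genes), 49% in NK (12820 genes) and 49% in pDC (9126 genes). Shares of cells were compared by exact permutation with cells thinned to 1500 UMIs, which left out 3 of 31 control Treg, 29 of 218 control pDC and 7 of 329 control NK cells, and at most 2 control cells of the other 3 gates. Shares and sums cover these samples, and floors cover counting error only.

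All 6 members are named in every gate, and genes of the 4 pathway lists are named where they passed. For each member the 3 genes with the most similar gate means were named. The members and the lists were chosen with earlier results of these data known. Alternatives were DESeq2 1.42.0, median-of-ratios scaling, no filter on low counts, a replicate block, doublets kept, stricter cells (500 genes, 10% mitochondrial), a stricter gate, thinning, and each sample left out. For the thinned sums the gates were set again on the thinned counts, so cells could also leave or change gates. The thinned shares of cells kept the gates of the full counts. Figures were drawn with matplotlib 3.10.9 (Python 3.11.15).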

Additional observations from a re-analysis of the deposited data

Results flagged for a closer look

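Tnfrsf18 in the CD4 gate of treated sample 4 was 307 CPM, far from the next highest treated sample (143 CPM). In the same gate and sample 58.4% of cells held a UMI of Il2ra, Ikzf2 or Ctla4, the highest share of the 4 treated samples. Cd27 in pDC of treated sample 1 was 23.9 CPM, from 26 UMIs, above the other 3 treated samples, which lay close together. In all, 36 groups of 4 samples were looked at in this way, and chance marks about 1 in 20.

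The fitted treatment difference was not the same in all gates, but most of these differences did not pass without control 2. Tnfrsf4 changed in Treg relative to CD8 cells by 4.79 (log2), Tnfrsf9 by 3.43 and Tnfrsf18 by 1.20 with 1 Treg control, and by 3.97, 3.38 and 1.15 with all 3 Treg controls (at least 5 cells each). In CD8 relative to innate-like T cells, Tnfrsf4 changed by -2.63 and Tnfrsf9 by -2.51. Each of these was past an adjusted p of 0.05 in the gate-by-group term of edgeR with at least 10 cells per sample and gate. With at least 5 cells, Tnfrsf4 did not pass between CD8 and innate-like T cells (-2.46, adjusted p = 0.085). With at least 5 cells and without control 2, Tnfrsf9 still passed between Treg and CD8 cells, and Tnfrsf4 and Tnfrsf18 did not. With at least 10 cells and without control 2, neither Tnfrsf4 nor Tnfrsf9 passed between CD8 and innate-like T cells.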

How the results depend on the processing

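Counts of genes past the threshold fell under thinning to 1500 UMIs. Thinning leaves fewer UMIs per cell, and the gates were set again on the thinned counts, so the cells in a gate also changed. In CD4 771 became 30, in CD8 4571 became 1304, in innate-like T 1763 became 314, in NK 3957 became 1084 and in pDC 1245 became 371. With activation genes the 2411 of CD8 cells became 398, without them 564 became 369, and the 3846 of NK cells without ILC1 markers became 1044. The 232 genes of Treg became 99 under thinning, 382 with no low-count filter, 125 with the replicate block and 137 with the stricter gate. DESeq2 gave 465 in CD4, and the stricter gate gave 1007 in innate-like T and 823 in pDC. Leaving out each sample gave 76 to 195 in Treg, 228 to 808 in CD4, 2960 to 4474 in CD8, 843 to 1867 in innate-like T, 1743 to 3919 in NK and 683 to 1300 in pDC, 1752 to 2532 and 298 to 550 in CD8 with and without activation genes, and 1556 to 3776 in NK without ILC1 markers. The lowest counts came without control 2 in Treg, innate-like T and NK and without control 1 in CD4, CD8 and pDC. Counts also fell by over 1.5 times in Treg without control 3 (95) or treated sample 2 (132), in CD4 without treated sample 3 (506), and in CD8 without activation genes without each control (345, 298 and 333). Of 90 member and gate pairs, 79 differed between gates in treated samples (76 to 78 with a sample left out) and 59 in controls (54 to 57 without control 3 or 1). Over the same 15 pairs of gates, 45.8% of all gene tests passed in treated samples and 13.2% in controls. Without control 2 the Treg pairs could not be fitted, and 38 of the remaining 60 differed. The 5 differences of the effect between gates became 0 under thinning, where the Treg contrasts could not be fitted, and 0 to 8 with a sample left out.

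Of the single values, 23 changed sign, and none of these passed as first fitted. They were Tnfrsf18 in Treg (0.17 with no filter, 0.011 thinned, -0.25 to 0.27 with a sample left out), Tnfrsf4 in CD4 (-0.32 without control 1, up to 1.23 without control 2) and in innate-like T (1.36 with the stricter gate), and Tnfrsf9 in innate-like T (0.25 thinned, -0.25 to 0.039 with a sample left out, above 0 without control 2 or treated 3). Icos in NK was 0.0073 with no filter and 0.0068 with doublets kept, and Tnfrsf18 in pDC 0.014 with doublets kept and 0.26 with the stricter gate. Cd27 in NK without ILC1 markers was 0.074 with no filter, 0.036 with doublets kept, 0.18 with the stricter gate, 0.26 thinned, and -0.14 to 0.054 with a sample left out, above 0 without control 1, control 3 or treated 3. Between gates, with a treated sample left out, the differences were -0.16 to 0.34 for Tnfrsf4 in innate-like T against CD8, -0.064 to 0.43 for Tnfrsf9 in CD4 against NK and -0.14 to 0.20 for Cd28 in Treg against innate-like T, each lowest without treated 4, and -0.057 to 0.17 for Cd27 in innate-like T against CD4, lowest without treated 3. The cause was not tested. In the CD4 gate the replicate block gave Tnfrsf18 -0.87 (adjusted p = 0.024) and in Treg it gave Cd28 1.03 (adjusted p = 0.085). Same-numbered samples showed no clear shared deviation (correlations of -0.197 to 0.109). With as few as 7 control cells in a gate, this cannot tell whether the numbers pair the samples. Few control cells limit the Treg and CD4 gates most.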

Other observations

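Outside the lymphocyte gates, Tnfrsf9 was carried by myeloid cells of the controls. In the monocyte or macrophage gate it was 37.9 to 52.6 CPM in controls and 2.31 to 5.24 CPM in treated samples, and in mature dendritic cells (Fscn1 or Ccl22) 149 to 191 against 36.9 to 86.7 CPM. Tnfrsf4 in mature dendritic cells was 115 to 145 CPM in controls and 143 to 170 CPM in treated samples, while Cd28 there rested on at most 2 UMIs per sample. Tnfrsf18 in neutrophils was 50.5 to 59.5 CPM in controls and 13.6 to 18.8 CPM in treated samples. These gates were not tested.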
